A study of Homo sapiens with 8 samples.

Results

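The 311 coding genes described here are those whose annotated span, from first to last base with introns, reaches 500 kb. They are the protein-coding rows (gene type from GENCODE 29) on chromosomes 1 to 22 of a table of 80311 rows, of which 18886 are coding and autosomal. RAD51B, FARS2 and genes whose symbols start with COL were left out, which removed 2 rows of that length. The rule used the annotation alone and no measured value. The spans have a median of 715 kb and add up to 259 Mb. Of the 311 genes, 171 span 500 to 750 kb, 73 span 750 to 1000 kb and 67 span 1000 kb or more, up to the 2474 kb of RBFOX1. Exons in GENCODE 29 cover a median of 1.21% of the span in these genes and 13.8% in the coding genes under 500 kb. In GENCODE 29, 10 of the 311 are shorter than 500 kb. Chromosomes 3 and 7 hold 38 and 27 of them, and chromosome 19 is the only autosome with none. For 4 of them the table gives an identifier and no symbol.

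Almost all of a gene this long is intron. RNA polymerase II has to travel the whole distance before a full-length transcript is made, so a single passage can take many hours, and the introns are removed while transcription is still under way. The release of polymerase from its pause near the start is driven by the kinase P-TEFb, which the 7SK small nuclear RNA holds in an inactive complex. MePCE (gene MEPCE) puts the methyl cap on 7SK and stays bound to it. Genes of this length are known mainly from the nervous system, where many encode adhesion molecules and ion channels, and several lie at common fragile sites, stretches of the genome prone to break under replication stress.

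Total RNA was sequenced from U2OS cells, a human osteosarcoma line, for work on how MePCE acts where R-loops meet broken DNA. The 8 libraries formed 4 groups of 2. Flp-In siNC and Flp-In siMePCE are U2OS-Flp-In-TREx cells given a control siRNA (siNC) or one against MEPCE (siMePCE). AsiSI siNC and AsiSI siMePCE are the same siRNAs in U2OS- AiD-DiVA AsiSI -ER cells, in which 4-OHT switches on AsiSI, a restriction enzyme that then breaks DNA at its sites. All cells received siRNA at 0 and 48 h and were lysed at 96 h. AsiSI cells of both groups also received 300 nM 4-OHT for the last 4 h. The labels state no 4-OHT for Flp-In cells and grow the lines under different selection drugs, so line, selection and 4-OHT cannot be told apart. Whether the 2 libraries of a group stem from separate cultures is not stated in the labels. The p-values then rest on the spread between these libraries alone, which may be technical.

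Promoter sequence is shown for the 2 genes that rose most and the 2 that fell most after siMePCE averaged over both lines, since their responses go in opposite directions. RefSeq (GRCh38.p14) gave a promoter, from 250 bases before to 50 after the start, for 255 of the 311 genes. For 165 of these the RefSeq start lay within 1 kb of the GENCODE 29 start and for 90 it did not. Capitals mark the letters GGGCGG (known to bind SP1), the letters CCAAT (NF-Y), the letters TATAAA (TBP) and the letters TGACTCA (AP-1), on either strand. Each sequence runs 5′ to 3′ in the direction of its gene.
ALDH1A2, chr15:58065662-58065961, - strand: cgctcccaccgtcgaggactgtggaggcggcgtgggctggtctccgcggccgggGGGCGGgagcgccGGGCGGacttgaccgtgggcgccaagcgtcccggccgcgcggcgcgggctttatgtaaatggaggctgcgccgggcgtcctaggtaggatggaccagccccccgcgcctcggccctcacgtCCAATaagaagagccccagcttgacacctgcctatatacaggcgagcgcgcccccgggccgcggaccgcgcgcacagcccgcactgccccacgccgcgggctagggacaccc
NRG3, chr10:81874944-81875243, + strand: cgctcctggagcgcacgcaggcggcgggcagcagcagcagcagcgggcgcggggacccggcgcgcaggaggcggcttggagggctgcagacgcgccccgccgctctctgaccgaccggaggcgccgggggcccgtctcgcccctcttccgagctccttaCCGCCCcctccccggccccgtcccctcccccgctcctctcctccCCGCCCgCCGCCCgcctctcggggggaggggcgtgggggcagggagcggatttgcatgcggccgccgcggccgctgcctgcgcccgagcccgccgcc
TENM2, chr5:167072992-167073291, + strand: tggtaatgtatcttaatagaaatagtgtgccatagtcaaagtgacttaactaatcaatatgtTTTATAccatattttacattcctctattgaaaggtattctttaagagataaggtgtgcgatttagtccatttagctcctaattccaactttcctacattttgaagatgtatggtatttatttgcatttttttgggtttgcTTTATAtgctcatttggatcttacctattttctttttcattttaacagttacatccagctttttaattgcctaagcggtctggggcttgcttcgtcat
PTPRG, chr3:61561321-61561620, + strand: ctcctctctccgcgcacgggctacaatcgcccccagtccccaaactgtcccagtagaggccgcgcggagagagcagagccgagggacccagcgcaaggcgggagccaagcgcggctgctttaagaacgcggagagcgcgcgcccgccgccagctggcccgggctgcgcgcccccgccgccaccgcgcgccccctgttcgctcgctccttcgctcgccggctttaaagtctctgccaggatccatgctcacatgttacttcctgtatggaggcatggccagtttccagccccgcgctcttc
ALDH1A2 and NRG3, which rose, had GC contents of 74% and 81%, and PTPRG, which fell, 68.7%. TENM2, which fell most, had 32% GC and 2 TATAAA matches. These 4 do not stand for the rest, since the median GC content was 62.0% in the 143 called higher in the average of both lines and 66.3% in the 62 called lower. The median log2 fold change was 0.22 in 145 genes with a promoter GC content of 60% or more and 0.34 in the other 110. The RefSeq start of ALDH1A2 lies 432 kb downstream of its GENCODE 29 start, and that of TENM2 212 kb upstream of it, so neither sequence borders the GENCODE 29 start. Over the 255 genes the median GC content was 64.3%, against 63.0% over 14539 coding autosomal genes. GGGCGG was present in 51.4% of the 255 and in 59.7% of these coding genes (45% of all 35116 RefSeq promoters). CCAAT was present in 31.8%, 36.3% and 34.6% of the 3 sets, TATAAA in 7.84%, 9.64% and 11.5%, and TGACTCA in 2.75%, 3.67% and 4.95%. Among long genes called higher after siMePCE in the average of both lines 50.4% held GGGCGG, and among those called lower 58.1%. TGACTCA was found in 6 of 143 called higher and in 0 of 62 called lower. A match shows the letters and nothing about binding.

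Total counts were 41431776 to 53695626 per library. Levels are given as CPM, counts scaled to library size with TMM factors. MEPCE measured 39.9 and 40.1 CPM under siNC against 5.35 and 4.84 CPM under siMePCE in Flp-In, and 29.3 and 29.3 against 3.65 and 2.30 CPM in AsiSI. It was 7.85-fold lower after siMePCE in Flp-In and 9.85-fold lower in AsiSI, and RN7SK, the 7SK RNA, 4.94-fold and 4.92-fold lower. The mesenchymal and bone markers VIM, SPARC, CD44 and RUNX2 lay at 30.1 CPM or more in every library, with THY1 from 8.65 CPM and TWIST1 from 0.559 CPM. The epithelial markers EPCAM, CDH1 and KRT19 reached 6.64, 6.58 and 0.0405 CPM, and the leukocyte markers PTPRC and CD3E 7.49 and 0.124 CPM. The neural genes MAP2, RBFOX3 and SYT1, the last a long gene itself, lay at 17.7 CPM or more. Mitochondrial genes took 5.23% to 5.91% of counts in siNC libraries and 8.24% to 10.6% in siMePCE libraries. Their part in the results below was not tested beyond a fit that left out mitochondrial, RN7SK, RN7SL and ribosomal RNA rows. In that fit 144 of the 311 genes were called higher and 76 lower after siMePCE in Flp-In. In AsiSI 164 were called higher and 57 lower, and all 4 counts equal those of the fit reported below. Counts cover whole gene spans, and a read seems to count for each row it overlaps, whatever the strand. In 150 of the 311 genes some overlapping row held at least 0.1 times the gene's counts, and in 55 at least 0.5 times, so the values of these genes are uncertain as single genes. Less RNA per cell and fewer expressing cells cannot be told apart in bulk RNA.

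In Flp-In cells, the comparison of siMePCE with siNC asked how the longest genes respond to loss of MePCE without induced breaks. Of the 311 genes, 144 were higher and 76 lower after siMePCE by edgeR's quasi-likelihood test (adjusted p under 0.05, adjusted over all 43321 rows tested). All 311 had passed the count filter. Over all rows tested 18.1 percent were called higher and 22.8 percent lower, and over coding rows 20.8 percent and 34.4 percent. The long genes had a median log2 fold change of 0.24, with quartiles of -0.25 and 0.78, against -0.10 for coding rows and 0.03 for all rows. TMM scaling on coding rows alone raised all log2 fold changes by a median of 0.11 in Flp-In, 0.15 in AsiSI and 0.13 in their average. Without Flp-In siMePCE replicate 2 the median of the long genes was 0.16.

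ALDH1A2, the retinaldehyde dehydrogenase that makes retinoic acid (ENSG00000128918, chromosome 15, 58245622 to 58790065, minus strand, hg19), had the largest rise in Flp-In. It measured 6.25 and 6.75 CPM under siNC and 34.3 and 32.4 CPM under siMePCE in Flp-In (5.13-fold, log2 fold change 2.36, SE 0.144, adjusted p = 2.04e-11). Its libraries did not overlap between groups, which was a condition for all genes named as largest rises or falls. LIPC, hepatic lipase, which overlaps the counted span in part on the opposite strand, held 0.747 times the counts of ALDH1A2 and had a smaller log2 fold change of 0.53. SGCD, a sarcoglycan of the muscle membrane complex, measured 5.59 and 5.96 CPM under siNC and 17.3 and 21.7 CPM under siMePCE in Flp-In (log2 fold change 1.76, SE 0.172, adjusted p = 2.85e-08). ZFPM2, a cofactor of GATA transcription factors, measured 121 and 121 CPM under siNC and 401 and 392 CPM under siMePCE in Flp-In (log2 fold change 1.71, SE 0.0762, adjusted p = 2.07e-13). It shares its locus with ZFPM2-AS1, which held 2.06 times its counts and rose by 1.82 on the log2 scale, so these 2 cannot be told apart. CNTN5, a contactin adhesion molecule, rose 3.08-fold and PTPRD, a receptor tyrosine phosphatase, 3.08-fold. Both were among the genes with a low read density, at 16.4 and 14.5 CPM per Mb of span on average.

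The largest fall in Flp-In was that of PTPRG, another receptor tyrosine phosphatase (ENSG00000144724, chromosome 3, 61547243 to 62283284, plus strand, hg19). It measured 276 and 266 CPM under siNC and 60.8 and 73.4 CPM under siMePCE in Flp-In (4.04-fold lower, log2 fold change -2.01, SE 0.0952, adjusted p = 4.39e-13). TENM2, a teneurin that joins cells across the synapse (ENSG00000145934, chromosome 5, 166406034 to 167691162, plus strand, hg19), measured 326 and 313 CPM under siNC and 74.96 and 85.02 CPM under siMePCE in Flp-In (3.99-fold lower, log2 fold change -1.998, SE 0.0875, adjusted p = 1.64e-13). For both genes the siMePCE libraries lay far below the siNC libraries. PTPRG-AS1 held 0.299 times the counts of PTPRG and TENM2-AS1 0.156 times those of TENM2, and both fell too. KSR2, a scaffold of the RAF and MEK kinases, fell 3.31-fold, from 24.3 and 23.7 to 6.51 and 8.02 CPM. TENM4, a second teneurin, fell 2.91-fold and TRAPPC9, a subunit of a vesicle tethering complex, 2.80-fold.

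In AsiSI cells given 4-OHT the same comparison was made in the presence of the induced enzyme. Here 164 of the 311 genes were higher and 57 lower after siMePCE, against 16.8 percent and 21.4 percent of all rows and 17.0 percent and 35.4 percent of coding rows. With TMM scaling on coding rows alone the split was 191 and 35. The median log2 fold change of the long genes was 0.33 (quartiles -0.10 and 0.70), against -0.14 for coding rows and 0.04 for all rows. Without AsiSI siMePCE replicate 2 the median was 0.21.

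ALDH1A2 again rose most in AsiSI. It measured 9.81 and 9.77 CPM under siNC and 45.3 and 33.2 CPM under siMePCE (4.005-fold, log2 fold change 2.002, SE 0.138, adjusted p = 1.44e-10). In this line LIPC rose as well, by 1.61 on the log2 scale. NRG3, a ligand of the ErbB4 receptor (ENSG00000185737, chromosome 10, 83634950 to 84746935, plus strand, hg19), measured 176 and 187 CPM under siNC and 659 and 669.6 CPM under siMePCE (3.67-fold, log2 fold change 1.87, SE 0.0773, adjusted p = 7.42e-14). The row overlapping NRG3 with most counts held 0.0267 times its counts. MAGI2, a scaffold of cell junctions, measured 109 and 114 CPM under siNC and 379 and 438 CPM under siMePCE (log2 fold change 1.87, SE 0.0849, adjusted p = 2.97e-13). In all 3 genes both siMePCE libraries lay well above both siNC libraries. MGAT4C, a glycosyltransferase, and SLC4A10, a bicarbonate transporter, rose 3.45-fold and 3.33-fold. A lincRNA on the same strand held 0.522 times the counts of MGAT4C and rose by 1.71 on the log2 scale.

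Among the falls in AsiSI, DELEC1 measured 338 and 518 CPM under siNC and 139.7 and 155 CPM under siMePCE (log2 fold change -1.54, SE 0.147, adjusted p = 1.25e-06). TNC, the matrix protein tenascin C, overlaps DELEC1 on the opposite strand, held 0.929 times its counts and had a log2 fold change of -1.74, so this fall cannot be assigned to DELEC1. TENM2 measured 529 and 467 CPM under siNC and 176 and 170.1 CPM under siMePCE (2.88-fold lower, log2 fold change -1.52, SE 0.0857, adjusted p = 6.46e-12). SDK1, an immunoglobulin adhesion molecule, measured 433 and 442 CPM under siNC and 150.1 and 181 CPM under siMePCE (2.64-fold lower, log2 fold change -1.40, SE 0.113, adjusted p = 3.9e-09). CDH4, or R-cadherin, fell 2.45-fold and KSR2 2.17-fold. TENM2, SDK1 and CDH4 are all adhesion molecules of the cell surface. They do not stand for such genes, since 27 of 49 adhesion, guidance and synapse genes rose in AsiSI and 9 fell.

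The comparisons in Flp-In and AsiSI share no libraries. Higher in both were 118 long genes, which is 81.9% of those higher in Flp-In and 72.0% of those higher in AsiSI. Lower in both were 46, which is 60.5% of those lower in Flp-In and 80.7% of those lower in AsiSI. Over coding rows the 4 shares were 57.3%, 70.2%, 78.7% and 76.4%. The 2 lines called 8 of the 311 long genes in opposite directions and 42 were called in neither line. Of 16693 coding rows tested, 105 were called in opposite directions and 5355 in neither line. Of all 43321 rows tested these were 199 and 20665. Averaged over both lines, 177 long genes were higher and 74 lower. Of all rows 52.4 percent were called, 25.2 percent higher and 27.2 percent lower, and of coding rows 24.6 percent higher and 40.9 percent lower.

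**Figure D1:**
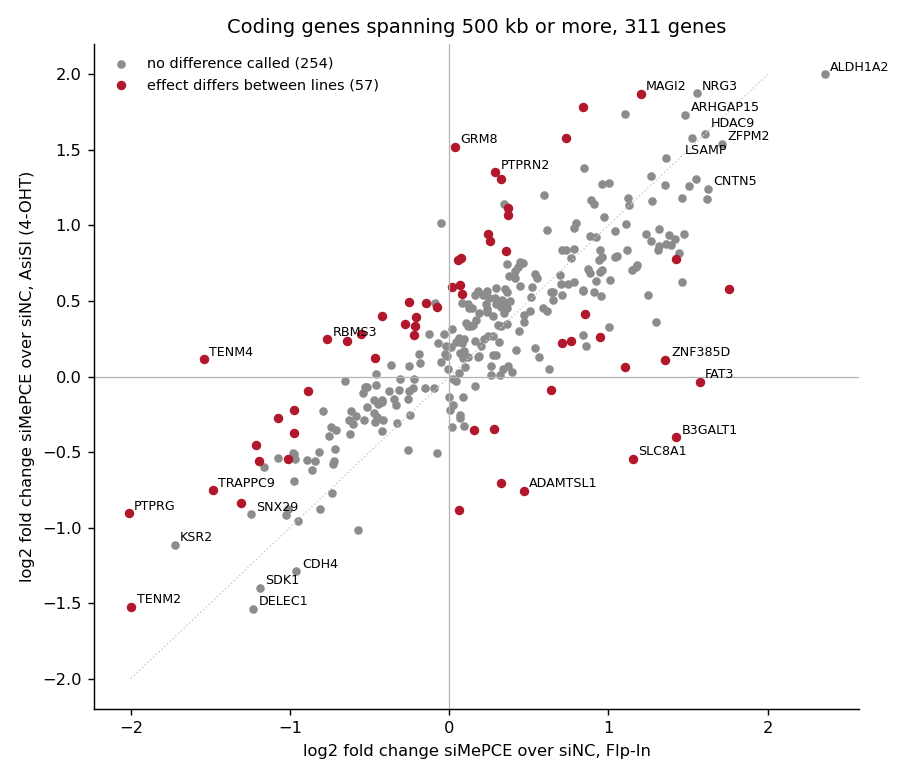
Log2 fold change of siMePCE over siNC for the 311 long genes, in Flp-In on the horizontal axis and in AsiSI with 4-OHT on the vertical axis, with 1 point per gene and a dotted line of equal change. ALDH1A2 lies far to the upper right and TENM2 to the lower left, and the 57 red points are genes whose effect differed between the lines.

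Averaged over both lines the largest rises were those of ALDH1A2 (4.53-fold), NRG3 (3.28-fold), ZFPM2 (3.09-fold), ARHGAP15 (3.05-fold), HDAC9 (3.05-fold), LSAMP (2.93-fold), MAGI2 (2.90-fold) and CNTN5 (2.70-fold). HDAC9, a class IIa histone deacetylase, measured 116 and 108 CPM under siNC and 339 and 344 CPM under siMePCE in Flp-In. AsiSI libraries held 398 and 370.1 CPM under siNC and 1188 and 1151 CPM under siMePCE. Its rise was 3.05-fold in Flp-In and 3.04-fold in AsiSI, and its level under siNC was 3.43-fold higher in AsiSI. LSAMP, an IgLON adhesion molecule, measured 180.4 and 184 CPM under siNC and 469.5 and 577 CPM under siMePCE in Flp-In. Levels in AsiSI were 694 and 767 CPM under siNC and 2075 and 2294 CPM under siMePCE. An overlapping row without a symbol held 0.587 times the counts of LSAMP and rose by 1.61 on the log2 scale in the average. ARHGAP15, which switches off the GTPase Rac, measured 3.40 and 4.55 CPM under siNC and 9.10 and 13.1 CPM under siMePCE in Flp-In, and ARHGAP15-AS1, at 0.464 times its counts, rose as well.

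The largest falls in the average were those of TENM2 (3.39-fold), PTPRG (2.75-fold), KSR2 (2.68-fold), DELEC1 (2.61-fold), SDK1 (2.45-fold), CDH4 (2.18-fold), TRAPPC9 (2.17-fold) and SNX29 (2.11-fold). CDH4 measured 95.4 and 101 CPM under siNC and 51.6 and 49.5 CPM under siMePCE in Flp-In, with little spread between replicates. SNX29, a sorting nexin, measured 47.9 and 46.5 CPM under siNC and 19.8 and 20.02 CPM under siMePCE in Flp-In. Its AsiSI libraries had 28.6 and 25.2 CPM under siNC and 14.98 and 13.6 CPM under siMePCE. TENM2 spans 1285 kb and is thus one of the 67 genes of 1000 kb or more.

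**Figure D2:**
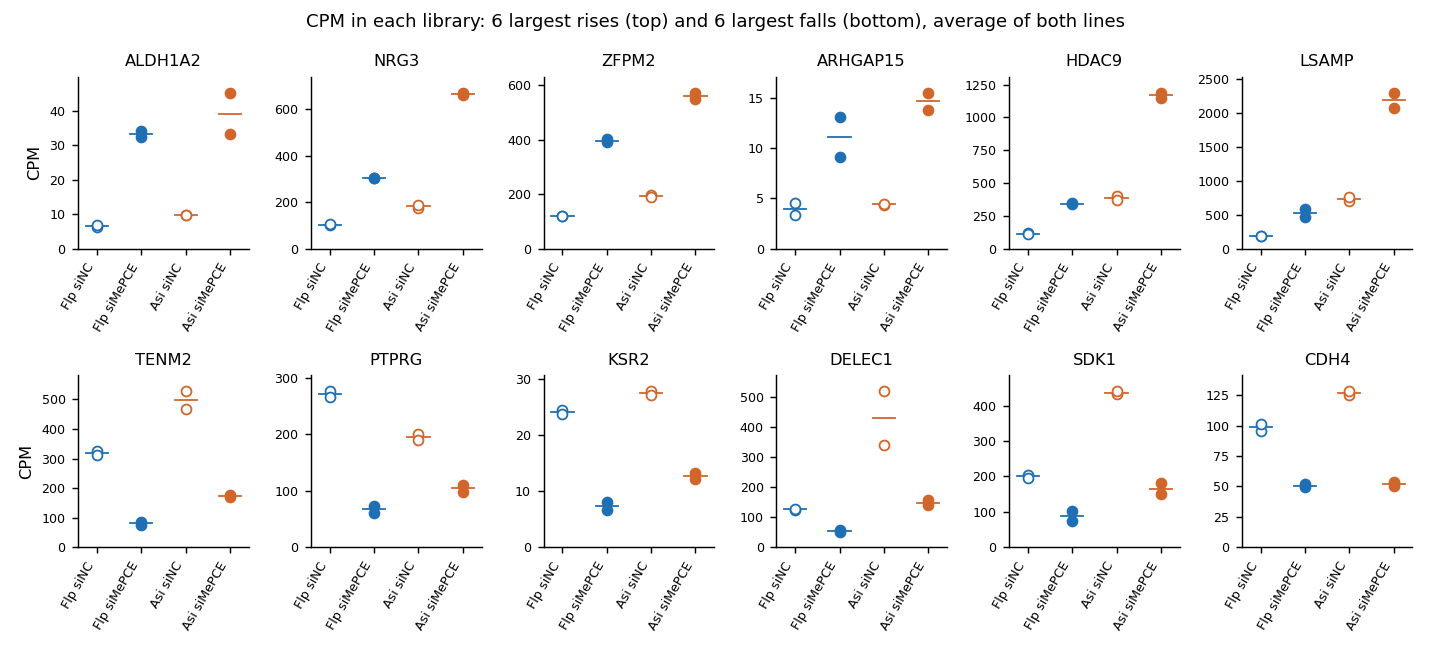
CPM on a linear axis from 0 in each of the 8 libraries for the 6 long genes that rose most (top) and the 6 that fell most (bottom), averaged over both lines. Open points are siNC, filled points siMePCE, blue Flp-In, orange AsiSI, and bars mark the mean of 2 libraries. The 12 genes were chosen among those whose siMePCE and siNC libraries do not overlap in either line.

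Across coding genes, the median change after siMePCE was below 0 in the classes of shortest span and above 0 in the long genes, without rising at every step. In Flp-In the median log2 fold change was -0.46 under 10 kb, -0.23 from 10 to 25 kb, -0.08 from 25 to 50 kb, 0.01 from 50 to 100 kb, 0.05 from 100 to 200 kb, 0.02 from 200 to 300 kb and 0.14 from 300 to 500 kb. In the long genes it was 0.15 from 500 to 750 kb, 0.34 from 750 to 1000 kb and 0.29 from 1000 kb. In AsiSI it was -0.42, -0.25, -0.15, -0.07, 0.01, 0.04 and 0.18 in the same 7 classes up to 500 kb, and 0.23, 0.50 and 0.37 in the 3 classes of long genes. The share of genes called higher in Flp-In was 9.81% under 10 kb, 39.2% from 500 to 750 kb, 58.9% from 750 to 1000 kb and 50.7% from 1000 kb. In AsiSI it was 8.65%, 45.6%, 63.0% and 59.7%. From 300 to 500 kb it was 40.5% in Flp-In and 38.2% in AsiSI, so the shares showed no step at 500 kb in Flp-In. Just below the limit CACNA2D1 (498 kb), ITPR2 (498 kb) and DIAPH3 (498 kb) had average log2 fold changes of 0.51, -0.01 and -0.17. Just above it ANO5 (501 kb), KCNAB1 (501 kb) and SPOCK3 (501 kb) had -0.42, -0.74 and 0.16.

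**Figure D3:**
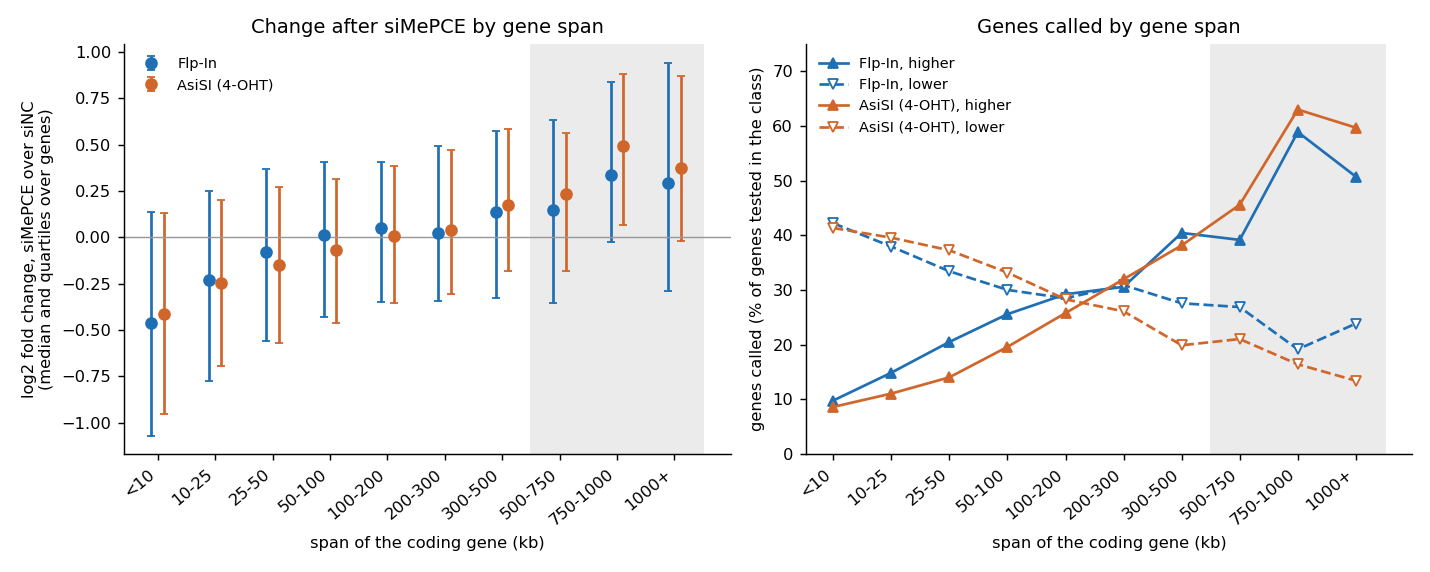
Left, median log2 fold change of siMePCE over siNC with quartiles over genes, and right, percent of genes called higher or lower, for coding genes in 10 classes of span in kb, in Flp-In (blue) and AsiSI (orange). The shaded classes are the genes of 500 kb or more, where calls higher exceed calls lower in both lines, while under 10 kb 42.2% and 41.4% were called lower.

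Span was also set against read density, the mean CPM over the 8 libraries per Mb of span, a split chosen after the data had been seen. The long genes had a median density of 55.1 CPM per Mb, from 2.27 (DSCAM) to 1244 (NTM). At densities under 20 the median change of 70 long genes was 0.87 in Flp-In and 0.67 in AsiSI, with a median of 447 counts per library, and 70% of them were called higher in Flp-In. Coding genes under 50 kb had a median of 11.3 counts at these densities. They lie at the limit of the count filter, which a gene can pass through its higher group alone, and they are not compared with the long genes. At 100 to 200 CPM per Mb the 60 long genes had medians of 0.04 in Flp-In and 0.23 in AsiSI, and the 778 genes under 50 kb -0.35 and -0.17. At 200 to 500 CPM per Mb the 38 long genes had 0.10 and 0.20, and the 1544 genes under 50 kb -0.43 and -0.41. Genes of 200 to 500 kb had -0.16 and 0.002 at 100 to 200 CPM per Mb and -0.06 and -0.02 at 200 to 500. At lower densities neither they nor the long genes lay higher throughout. Genes of 200 to 500 kb had 0.79 and 0.71 under 20, and 0.28 and 0.40 at 20 to 50, where the long genes had 0.18 and 0.34. At 50 to 100 they had -0.03 and 0.10, and the long genes 0.07 and 0.02. At 100 to 200 CPM per Mb exons covered a median of 1.30% of the span in the long genes and 23.4% in genes under 50 kb. Median counts there were 5066 and 106, so genes of equal density were not alike in exon share or counts. Density and the change share the same libraries, and no test was made of either split. Over all long genes of at least 100 CPM per Mb the medians were 0.09 in Flp-In and 0.23 in AsiSI. Without Flp-In siNC replicate 2 the first of these was 0.05, and without genes that have an overlapping row of 0.1 times their counts the 2 medians were 0.05 and 0.14.

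**Figure D4:**
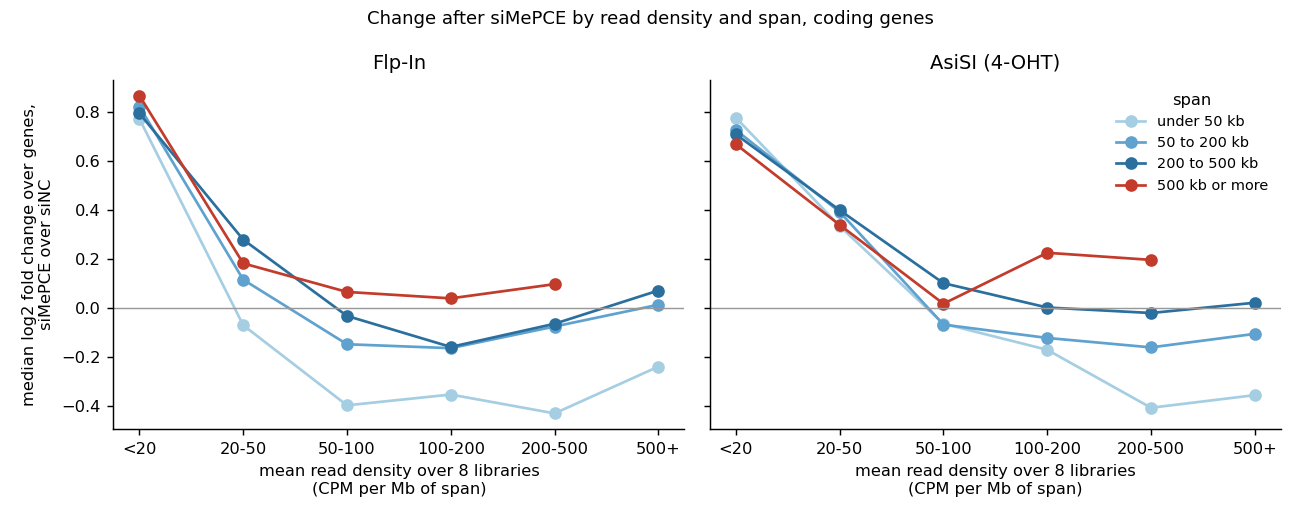
Median log2 fold change of siMePCE over siNC by mean read density in CPM per Mb of span, in Flp-In (left) and AsiSI (right), for coding genes in 4 classes of span drawn as curves. Under 20 the points of genes under 50 kb rest on a median of 11.3 counts at the limit of the filter and bear no comparison, and from 100 to 500 the curve of genes of 500 kb or more lies above that of genes under 50 kb in both panels. At 20 to 50 the curve of genes of 200 to 500 kb lies above that of genes of 500 kb or more.

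Counts summed over the 311 long genes were set against counts summed over all coding autosomal genes. A read may enter such a sum more than once, where rows overlap. In Flp-In the long genes took 3.21% and 3.22% of these counts under siNC, and 3.51% and 3.90% under siMePCE. In AsiSI they took 3.51% and 3.53% under siNC and 4.73% and 5.21% under siMePCE. The ratio of group means was 1.15 in Flp-In and 1.41 in AsiSI. Within a line both siMePCE libraries lay above both siNC libraries on this scale, and no test was made of this sum. In Flp-In the siMePCE libraries lay farther from each other than the lower of them lay from the siNC libraries. For the 161 long genes without an overlapping row of 0.1 times their counts the ratio was 1.13 in Flp-In and 1.32 in AsiSI. Without the 5 genes with most counts the ratio was 1.105 in Flp-In and 1.30 in AsiSI. As a percent of all counts, mitochondrial genes included, the long genes without these 5 took 2.03% and 2.02% under siNC and 2.01% and 2.27% under siMePCE in Flp-In, so the groups overlapped on that scale. The genes of 1000 kb or more took 0.741% and 0.740% under siNC and 0.865% and 0.971% under siMePCE in Flp-In. In AsiSI they took 0.885% and 0.891% under siNC and 1.41% and 1.59% under siMePCE.

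Ligands and matrix proteins come first among the roles of these genes. The list of extracellular matrix proteins, secreted factors and enzymes of proteoglycan synthesis had 19 members. Of the 19, 12 rose and 2 fell in Flp-In and 10 rose and 4 fell in AsiSI. In percent of the list this is 63.2, 10.5, 52.6 and 21.1, beside 46.3, 24.4, 52.7 and 18.3 of all 311 long genes. The median log2 fold changes were 0.36 and 0.35. Genes named below beyond the largest changes were in part chosen after their values had been seen. NRG3 and NRG1 are both ligands of ErbB receptors. NRG1 rose 1.86-fold in AsiSI and 1.19-fold in Flp-In, where the call (adjusted p = 0.0284) was lost without either siNC library of that line (0.147 and 0.154) or without its siMePCE replicate 2 (0.235). ERBB4, a receptor for neuregulins, is itself a long gene and rose 2.62-fold in Flp-In and 1.83-fold in AsiSI, where the log2 fold change of 0.87 was 0.50 without AsiSI siMePCE replicate 2 (adjusted p = 0.0515). EYS, a matrix protein of photoreceptors, rose 1.84-fold and 1.91-fold, but PHF3, which overlaps it, held 4.11 times its counts and had log2 fold changes of 0.43 and 0.36. GALNT17, a glycosyltransferase, rose 2.01-fold and 1.56-fold. RELN, the secreted guidance protein reelin, rose 2.17-fold and 2.27-fold.

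The list of cell adhesion, guidance and synapse organisers was the largest, with 49 members. Of the 49, 24 rose and 13 fell in Flp-In and 27 rose and 9 fell in AsiSI, with median log2 fold changes of 0.24 and 0.32. These are 49.0%, 26.5%, 55.1% and 18.4% of the list, close to the 46.3%, 24.4%, 52.7% and 18.3% of all 311 long genes. The IgLON genes LSAMP, NTM, NEGR1 and OPCML were all higher in both lines, with log2 fold changes in Flp-In of 1.52, 0.37, 0.78 and 0.91. In AsiSI they were 1.58, 1.07, 0.99 and 1.15. The 3 teneurins among the long genes went the other way in Flp-In, with -1.998 for TENM2, -0.47 for TENM3 and -1.54 for TENM4. In AsiSI TENM2 fell too, while TENM3 and TENM4 had 0.12 (adjusted p = 0.288) and 0.11 (adjusted p = 0.526). CSMD1, CSMD2 and CSMD3, large membrane proteins with complement control domains, fell in Flp-In by 0.42, 1.16 and 0.34 on the log2 scale. In AsiSI CSMD1 and CSMD2 fell by 0.36 and 0.60, and the call of CSMD1 was lost with TMM on coding rows (adjusted p = 0.0689). ROBO1, a guidance receptor, rose 1.28-fold in Flp-In and 1.78-fold in AsiSI. IgLON, teneurin and CSMD genes were grouped by name after their values had been seen.

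The list of ion channels and neurotransmitter receptors had 21 members. Of the 21, 12 rose and 5 fell in Flp-In and 10 rose and 2 fell in AsiSI. In percent of the list this is 57.1, 23.8, 47.6 and 9.52, beside 46.3, 24.4, 52.7 and 18.3 of all 311 long genes. The median log2 fold changes were 0.33 and 0.26. DPP6, a partner subunit of potassium channels, rose 2.93-fold and 2.47-fold, from siNC levels of 5.48 and 5.89 CPM in Flp-In and 3.33 and 4.22 CPM in AsiSI. CACNA1C, the pore of an L-type calcium channel, rose 1.93-fold in Flp-In and 1.20-fold in AsiSI. ITFG2-AS1, which overlaps it, held 1.48 times its counts and fell in both lines. The AsiSI call of CACNA1C (adjusted p = 0.0145) was lost without AsiSI siNC replicate 2 (0.0584) or AsiSI siMePCE replicate 2 (0.13). GRM7, a metabotropic glutamate receptor, rose 2.06-fold and 1.95-fold, with GRM7-AS3 at 1.35 times its counts and at -0.09 and 0.47 on the log2 scale. KCNMA1, a calcium-activated potassium channel, fell by 0.81 and 0.88 on the log2 scale. The list had a median density of 26 CPM per Mb of span.

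The list of kinases, phosphatases and other signalling enzymes had 27 members. Of the 27, 14 rose and 6 fell in Flp-In and 16 rose and 5 fell in AsiSI. In percent of the list this is 51.9, 22.2, 59.3 and 18.5, beside 46.3, 24.4, 52.7 and 18.3 of all 311 long genes. The median log2 fold changes were 0.28 and 0.42. The receptor phosphatases differed among themselves. PTPRG fell in both lines, PTPRD rose 3.08-fold and 2.26-fold, and the log2 fold change of PTPRK was 0.05 in Flp-In (adjusted p = 0.642) and 0.77 in AsiSI (adjusted p = 1.55e-07). PRKG1, the cGMP-dependent kinase, measured 139 and 136 CPM under siNC and 272 and 262 CPM under siMePCE in Flp-In. In AsiSI the values were 159.6 and 176 CPM under siNC and 372 and 440.3 CPM under siMePCE, and it rose 1.94-fold and 2.42-fold. WWOX, an oxidoreductase known as a tumour suppressor, fell 2.48-fold and 1.79-fold. PRKCA, protein kinase C alpha, and DOCK1, an activator of Rac, fell in both lines, with log2 fold changes of -0.95 and -1.02 in Flp-In.

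Transcription and chromatin regulators gave 23 members. Of the 23, 11 rose and 4 fell in Flp-In and 14 rose and 1 fell in AsiSI, with median log2 fold changes of 0.19 and 0.40. These are 47.8%, 17.4%, 60.9% and 4.35% of the list, beside 46.3%, 24.4%, 52.7% and 18.3% of all 311 long genes. Besides ZFPM2 and HDAC9, the nuclear receptors RORA and RARB rose. RORA measured 191 and 205 CPM under siNC and 381 and 413 CPM under siMePCE in Flp-In (2.01-fold, log2 fold change 1.004, SE 0.0842, adjusted p = 2.6e-09). AsiSI libraries held 170.0 and 182 CPM under siNC and 401 and 456 CPM under siMePCE (2.43-fold). RARB, a receptor for the retinoic acid that ALDH1A2 makes, rose 1.66-fold in Flp-In and 2.99-fold in AsiSI, from 12.9 and 11.8 and 13.5 and 12.99 CPM. The single gene lower in AsiSI was MECOM, a zinc finger oncoprotein (-0.29, adjusted p = 0.0225), and this call was lost with TMM on coding rows (0.295) and without AsiSI siNC replicate 2 (0.19) or AsiSI siMePCE replicate 1 (0.171). The list of RNA-binding proteins had 4 members, of which 2 rose and 1 fell in Flp-In and 3 rose and 0 fell in AsiSI. RBFOX1 and KHDRBS2 rose in both lines, and RBMS3 fell in Flp-In (-0.77, adjusted p = 2.11e-07). In AsiSI RBMS3 was called higher at 0.25 (adjusted p = 0.0269), but had 0.10 without AsiSI siMePCE replicate 2. RBFOX1, a splicing factor of neurons and muscle, rose 1.92-fold and 1.70-fold, and KHDRBS2 1.43-fold and 1.44-fold. The AsiSI call of KHDRBS2 was lost without AsiSI siMePCE replicate 2 (adjusted p = 0.0573). For CELF2 the log2 fold change was 0.02 (adjusted p = 0.913) in Flp-In and -0.19 in AsiSI (adjusted p = 0.238).

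Cytoskeletal, scaffold and vesicle traffic genes rose and fell in more equal numbers than the lists above, and differences between lists were not tested. Of the 39, 15 rose and 13 fell in Flp-In and 16 rose and 11 fell in AsiSI. In percent of the list this is 38.5, 33.3, 41.0 and 28.2, beside 46.3, 24.4, 52.7 and 18.3 of all 311 long genes. The median log2 fold changes were 0.07 and 0.13. SNX29, NAV2, SYNE1 and UTRN fell. NAV2, a neuron navigator protein, fell 1.67-fold and 1.71-fold, and SYNE1, the nuclear envelope linker nesprin, 2.29-fold and 1.48-fold. UTRN, utrophin, had log2 fold changes of -1.01 and -0.55. SORCS1, a sorting receptor, rose 2.69-fold and 1.71-fold, and ANK3, an ankyrin, 2.21-fold and 1.63-fold. The exocyst subunit EXOC4 had log2 fold changes of -0.82 and -0.50 and fell in both lines. EXOC6B, another subunit, had -0.47 in Flp-In, a fall, and -0.16 in AsiSI (adjusted p = 0.144).

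Metabolic and mitochondrial enzymes gave 12 members. Of the 12, 4 rose and 4 fell in Flp-In and 4 rose and 4 fell in AsiSI. Each is 33.3 percent of the list, beside 46.3, 24.4, 52.7 and 18.3 percent of all 311 long genes. The median log2 fold changes were 0.08 and -0.01. IMMP2L, a subunit of a peptidase of the mitochondrial inner membrane, measured 142 and 138 CPM under siNC and 63.3 and 79.1 CPM under siMePCE in Flp-In (1.97-fold lower, log2 fold change -0.98, SE 0.0977, adjusted p = 3.98e-08). In AsiSI it fell 1.62-fold. DPYD, which starts the breakdown of pyrimidines, fell 1.67-fold in Flp-In. Its fall in AsiSI (-0.34, adjusted p = 0.0119) was lost without AsiSI siNC replicate 1 (0.11) or AsiSI siMePCE replicate 1 (0.0754) and with TMM on coding rows (0.177). ATP8A2, a lipid flippase, fell 1.55-fold in Flp-In, and its AsiSI call (-0.29, adjusted p = 0.0378) was lost with TMM on coding rows (0.323) and without AsiSI siNC replicate 1 (0.224) or either AsiSI siMePCE library (0.12 and 0.0629). MGAT4C had the largest rise of this list in AsiSI. The median in AsiSI was 0.14 with TMM on coding rows and 0.02 with DESeq2 size factors, so its sign depends on the scaling.

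Of genes reported at common fragile sites, 19 were among the 311. Of the 19, 6 rose and 6 fell in Flp-In and 7 rose and 3 fell in AsiSI. In percent of the list this is 31.6, 31.6, 36.8 and 15.8, beside 46.3, 24.4, 52.7 and 18.3 of all 311 long genes. The median log2 fold changes were -0.0048 and 0.08. In Flp-In the median was 0.01 with DESeq2 size factors and 0.11 with TMM on coding rows, so its sign depends on the scaling. LSAMP, RORA and LRP1B rose in both lines, and WWOX, IMMP2L and DPYD fell in both. LRP1B, a receptor of the LDL receptor family, measured 61.1 and 53.2 CPM under siNC and 111 and 102 CPM under siMePCE in Flp-In (1.86-fold, log2 fold change 0.89, SE 0.0948, adjusted p = 9.46e-08). Levels in AsiSI were 46.6 and 44.1 CPM under siNC and 96.6 and 107 CPM under siMePCE (2.25-fold). FHIT, which lies at the most studied of these sites, fell in Flp-In (-0.79, adjusted p = 2.46e-05) and had -0.23 in AsiSI (adjusted p = 0.171). Of the 117 long genes in none of the 9 lists, 50 rose and 28 fell in Flp-In and 64 rose and 22 fell in AsiSI. In percent of these 117 this is 42.7, 23.9, 54.7 and 18.8.

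The 10 longest genes did not share a direction. RBFOX1 (2474 kb), PTPRD (2299 kb), LSAMP (2195 kb), EYS (1987 kb), LRP1B (1899.6 kb) and CTNNA3 (1851 kb) rose in both lines. CSMD1 (2059.6 kb) fell in both and DLG2 (2173 kb), a synaptic scaffold, in Flp-In (-0.45 against -0.18 in AsiSI, adjusted p = 0.13). CNTNAP2 (2305 kb) had -0.28 in Flp-In (adjusted p = 0.086) and rose by 0.35 in AsiSI. MACROD2 (2058 kb), an ADP-ribose hydrolase, had -0.00485 and 0.05, and it measured 30.9 and 31.97 CPM under siNC and 26.6 and 36.1 CPM under siMePCE in Flp-In, so groups overlapped. CTNNA3, an alpha catenin, measured 16.5 and 17.2 CPM under siNC and 20.3 and 30.2 CPM under siMePCE in Flp-In, and its log2 fold change was 0.27 without Flp-In siMePCE replicate 2 (adjusted p = 0.251) and 0.21 in AsiSI without AsiSI siMePCE replicate 2 (adjusted p = 0.404). Its Flp-In call was also lost without Flp-In siNC replicate 1 (adjusted p = 0.0707), and its AsiSI call without any 1 of 5 libraries. The AsiSI call of CNTNAP2 (adjusted p = 0.0316) was lost without any 1 of 5 libraries, with adjusted p from 0.0562 to 0.249.

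The 10 genes with the highest read density were NTM, ZBTB20, PARD3, HDAC9, CREB5, SYNE1, GPHN, NEGR1, KCNQ5 and ADK. NTM, the densest at 1244 CPM per Mb, measured 1436 and 1549 CPM under siNC and 1953 and 1906 CPM under siMePCE in Flp-In. Its AsiSI libraries had 451 and 444 CPM under siNC and 856 and 1021 CPM under siMePCE. HDAC9, NEGR1, NTM, CREB5, PARD3 and ADK were higher in both lines. CREB5, a transcription factor of the CREB and ATF family, rose 1.79-fold and 1.48-fold. PARD3, a polarity scaffold, rose 1.22-fold and 1.43-fold, and ADK, adenosine kinase, 1.25-fold and 1.26-fold. The Flp-In calls of PARD3 and ADK were lost without Flp-In siNC replicate 2 (adjusted p = 0.067) and Flp-In siMePCE replicate 2 (adjusted p = 0.0848). ZBTB20, a zinc finger repressor, rose 1.34-fold in AsiSI, and its Flp-In call (0.19, adjusted p = 0.0438) was lost without any 1 of 7 libraries, with adjusted p from 0.0583 to 0.249. GPHN, gephyrin, which anchors inhibitory synapse receptors and makes the molybdenum cofactor, measured 379 and 359.9 CPM under siNC and 392 and 397 CPM under siMePCE in Flp-In. It had log2 fold changes of 0.10 and 0.06 (adjusted p = 0.376 and 0.601). KCNQ5, a potassium channel, rose 1.56-fold in Flp-In and had -0.09 in AsiSI (adjusted p = 0.396).

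Rows lying inside the long genes gave a view along the span, since reads counted for a nested row appear to be counted for its host too. The 875 nested rows of 265 hosts were placed by their midpoint in 4 equal sections of the host, from its start to its end. The median of the nested row's log2 fold change minus that of its host was 0.19, 0.14, 0.03 and -0.03 from the first to the last section in Flp-In. In AsiSI it was 0.07, 0.25, 0.08 and -0.03. Median counts of the nested rows were 25.6 to 34.9 by section, and a row with few counts can pass the filter through its higher group alone. The part of this in the values above 0 was not tested. The first section exceeded the last by 0.096 in the average of both lines. By siMePCE library this difference was 0.091 and 0.197 in Flp-In and 0.044 and 0.132 in AsiSI, against a pooled SD of 0.069 between siMePCE replicates (n = 2 libraries per line). Both siMePCE libraries of a line were set against the same siNC mean, so this SD leaves out the spread of the siNC libraries. The values by library use log2 of CPM plus 0.5 and not the fitted changes. Among nested rows with mean counts of at least 50 the fitted difference in the average of both lines was 0.184. In the average of both lines the quartiles were -0.26 and 0.68 in the first section and -0.41 and 0.48 in the last, so the spread between rows was larger than the difference between sections. Nested rows can also be transcripts of their own. In 0 of 430 opposite-strand and 0 of 117 same-strand pairs did a nested row with a mean count of at least 20 exceed its host in any library.

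**Figure D5:**
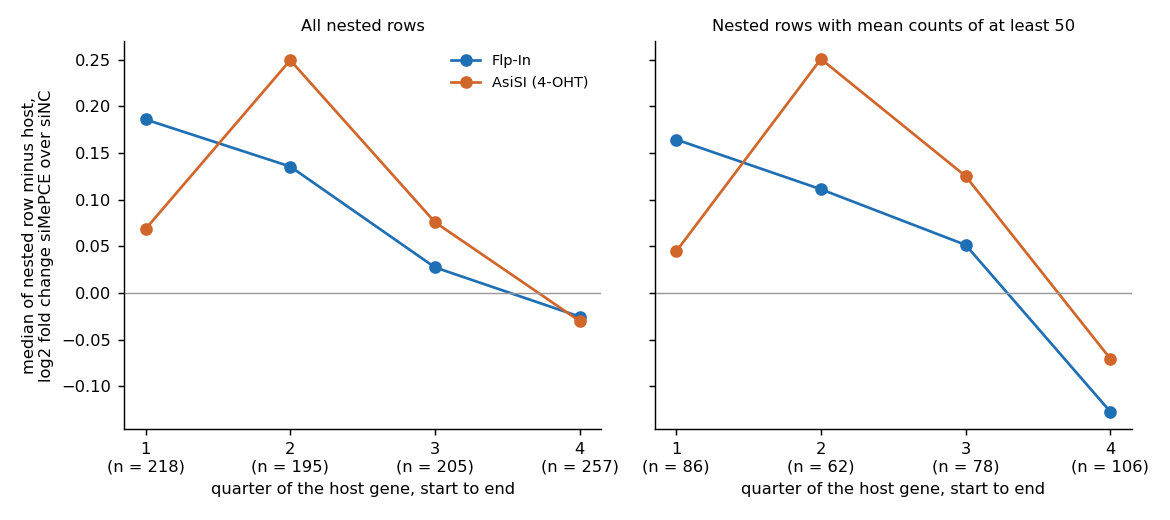
Median difference in log2 fold change (siMePCE over siNC) between rows nested in long genes and their host gene, by section of the host from start to end, for all 875 nested rows (left) and those with mean counts of at least 50 (right). Points in Flp-In (blue) and AsiSI (orange) are highest in the first or second section and below 0 in the last.

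The effect of siMePCE was compared between the lines by the test of the difference, AsiSI minus Flp-In. It was called for 57 long genes (4.41 percent of all rows), of which 40 were positive and 17 negative, against 2.60 percent and 1.81 percent of all rows and 3.20 percent and 3.47 percent of coding rows. Without Flp-In siNC replicate 1 the count was 33. Of the 57, 23 were called in the same direction in both lines, 8 in opposite directions, 10 in Flp-In only and 16 in AsiSI only. The long genes had a median difference of 0.13, against -0.06 for coding rows and -0.02 for all rows. Coding genes of 300 to 500 kb had a median difference of 0.02. In that class 10.8% were called positive and 5.19% negative, beside 12.9% and 5.47% of the long genes. Median counts were 1792.5 in the long genes, 766.5 in coding rows and 97.6 in all rows, so the shares called are not like for like.

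TENM4 had the largest positive difference. It measured 64.2 and 70.5 CPM under siNC and 21.2 and 25.004 CPM under siMePCE in Flp-In. In AsiSI the values were 25.5 and 32.5 CPM under siNC and 27.5 and 35.4 CPM under siMePCE, where the groups overlapped (difference 1.66, SE 0.185, adjusted p = 1.51e-05). GRM8, a metabotropic glutamate receptor, measured 18.95 and 17.997 CPM under siNC and 19.97 and 17.9 CPM under siMePCE in Flp-In, with no separation of the groups. AsiSI libraries held 11.6 and 12.9 CPM under siNC and 35.5 and 34.8 CPM under siMePCE (difference 1.49, SE 0.168, adjusted p = 1.66e-05). PTPRG fell less in AsiSI than in Flp-In (difference 1.11), and PTPRN2, a phosphatase-like protein of secretory vesicles, rose 2.55-fold in AsiSI (difference 1.06). The call of PTPRN2 in Flp-In (0.29, adjusted p = 0.041) was lost without any 1 of 3 libraries, and its value was 0.16 without Flp-In siNC replicate 1 (0.433). RBMS3, an RNA-binding protein, measured 285 and 286 CPM under siNC and 164 and 171 CPM under siMePCE in Flp-In. Levels in AsiSI were 184 and 176 CPM under siNC and 195 and 232 CPM under siMePCE (difference 1.01). Its call in AsiSI was lost without any 1 of 5 libraries, with a log2 fold change of 0.10 without AsiSI siMePCE replicate 2 (adjusted p = 0.473), and a coding row without a symbol on the same strand held 0.765 times its counts.

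In the other direction, B3GALT1, a galactosyltransferase, measured 20.6 and 22.1 CPM under siNC and 52.3 and 62.2 CPM under siMePCE in Flp-In. Its AsiSI libraries had 71.7 and 77.7 CPM under siNC and 58.5 and 54.5 CPM under siMePCE (difference -1.83, SE 0.145, adjusted p = 2.36e-07). SLC8A1, the sodium-calcium exchanger, measured 5.80 and 5.91 CPM under siNC and 11.7 and 14.4 CPM under siMePCE in Flp-In. In AsiSI the values were 18.6 and 15.8 CPM under siNC and 9.80 and 13.8 CPM under siMePCE (difference -1.70). Both rows thus rose in Flp-In and fell in AsiSI. A lincRNA nested in B3GALT1 on the same strand held 0.557 times its counts and had 1.58 in Flp-In and -0.35 in AsiSI on the log2 scale, beside 1.42 and -0.40 for B3GALT1. In GENCODE 29 B3GALT1 spans only 5.09 kb, so these changes cannot be assigned to B3GALT1. SLC8A1-AS1 held 1.22 times the counts of SLC8A1, with log2 fold changes of 3.04 and 0.62. FAT3, a giant cadherin, and ZNF385D, a zinc finger protein, rose 2.98-fold and 2.56-fold in Flp-In and had -0.04 and 0.11 on the log2 scale in AsiSI (adjusted p = 0.863 and 0.529). ADAMTSL1, a secreted matrix protein, rose 1.38-fold in Flp-In and fell 1.69-fold in AsiSI. Besides RBMS3, B3GALT1, SLC8A1 and ADAMTSL1, the genes called in opposite directions were SOX5, INPP4B, SPOCK1 and the unnamed row that overlaps RBMS3. Of these 8 only the B3GALT1 row, with the limit just given, kept both calls without any 1 library. SLC8A1 lost its AsiSI call without AsiSI siNC replicate 1 (adjusted p = 0.0964) or AsiSI siMePCE replicate 1 (0.151, log2 fold change -0.33), and with TMM on coding rows (0.0793). ADAMTSL1 lost its Flp-In call without Flp-In siNC replicate 1 (log2 fold change 0.26, adjusted p = 0.2) or Flp-In siMePCE replicate 2 (0.27, adjusted p = 0.166). SOX5 lost its AsiSI call without AsiSI siMePCE replicate 2 (0.21, adjusted p = 0.216), SPOCK1 its Flp-In call without Flp-In siMePCE replicate 2 (0.15, adjusted p = 0.435), and INPP4B lost a call without any 1 of 4 libraries.

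Under siNC, AsiSI cells with 4-OHT were set against Flp-In cells. Of the long genes 129 were higher and 62 lower in AsiSI, against 14.4 percent and 15.2 percent (29.6 percent in all) of all rows and 18.1 percent and 23.5 percent of coding rows. The median was 0.19 in the long genes, -0.04 in coding rows and 0.01 in all rows. ADAMTSL1 differed most, at 7.93 and 10.5 CPM in Flp-In against 204 and 207 CPM in AsiSI (22.3-fold, log2 fold change 4.48, SE 0.131, adjusted p = 2.02e-16). DGKB, a diacylglycerol kinase, was 6.50-fold, CREB5 5.88-fold, FAT3 5.38-fold and NAALADL2 4.30-fold higher. NTM, at 1436 and 1549 CPM in Flp-In against 451 and 444 CPM in AsiSI, was 3.34-fold lower (log2 fold change -1.74, SE 0.0822, adjusted p = 2.85e-13). ZNF804B, NRG1, the sorting receptor SORCS3 and the semaphorin SEMA5A were 2.91-fold, 2.83-fold, 2.68-fold and 2.50-fold lower. This comparison and the effect of siMePCE in each line share their siNC libraries.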

How the data were processed

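The deposited table holds whole-number read counts per gene for 8 libraries, made by the authors, and no per-sample column was left unused. Per the submitters' processing notes, Trim Galore, FastQC, STAR, SAMtools and featureCounts were used with hg19, and versions and settings are not given in the sources used here. Per the labels' protocols the libraries were directional and depleted of ribosomal RNA. The length given for each of the 80311 rows equals its whole span, introns included.

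Counts were tested with edgeR 4.0.16 (R 4.3.3, glmQLFit with robust spread, glmQLFTest, TMM, filterByExpr by group) as 4 group means, with Benjamini-Hochberg adjustment over all 43321 rows tested and calls at an adjusted p under 0.05. Each SE is the log2 fold change divided by the square root of its F. Total counts of 41431776 to 53695626 and 2 libraries per group limit the precision. Replicates of a group differed by more than sampling noise. The procedure was tested on simulated counts. Alternatives were DESeq2 1.42.0, its size factors, TMM on coding rows, other filters and a replicate block. Further ones were other spans, no overlapping rows, no mitochondrial, RN7SK, RN7SL and ribosomal RNA rows, and each library left out. The robust spread, the read density split and the span in GENCODE 29 were chosen after the data had been seen.

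Named genes were, among called genes with a mean of at least 5 CPM and groups that do not overlap (no such condition for the difference), the 8 largest rises and falls in the average and 5 in each other comparison, the 10 longest, the 10 densest, up to 4 per list by adjusted p and 3 on each side of 500 kb. Another 21 were chosen after their values had been seen. The long genes, the gene lists and this rule were chosen with earlier results of these data known.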

Additional observations from a re-analysis of the deposited data

Results flagged for a closer look

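The difference of the siMePCE effect between the lines, AsiSI minus Flp-In, passed the edgeR test in 57 of the 311 long genes. Of the genes named for this difference, 5 had a higher value in AsiSI, with log2 differences of 1.66 for TENM4, 1.49 for GRM8, 1.11 for PTPRG, 1.06 for PTPRN2 and 1.01 for RBMS3. The other 5 had a lower value in AsiSI, with -1.83 for B3GALT1, -1.70 for SLC8A1, -1.61 for FAT3, -1.25 for ZNF385D and -1.22 for ADAMTSL1. Line, selection drug and 4-OHT cannot be told apart in these differences.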

How the results depend on the processing

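The 311 long genes gave 220 calls in Flp-In, 221 in AsiSI, 251 in the average, 57 in the difference and 191 in AsiSI against Flp-In under siNC, where 40.9, 38.2, 52.4, 4.41 and 29.6 percent of all rows were called. DESeq2 gave 218, 218, 253, 80 and 190. The replicate block gave 234, 232, 263, 84 and 214, more than without it in each comparison. Deviations of libraries with the same number had correlations of 0.0427 to 0.155, all weak but positive. In Flp-In the median change of the long genes was 0.15 in siMePCE replicate 1 and 0.26 in siMePCE replicate 2. It was 0.22 and 0.40 in AsiSI. Whether libraries of the same number share a batch was not tested. Leaving out 1 library gave 171 to 227, 169 to 219, 227 to 252, 33 to 58 and 154 to 198. A further threshold of 1 on the size of the log2 fold change left 68, 43, 52, 13 and 53 (19.3, 16.9, 21.0, 1.79 and 12.0 percent of all rows passed it). Genes of 1000 kb or more gave 50, 49, 52, 13 and 43, fewer genes being tested. A limit of 400 kb gave 343 in Flp-In, 383 in the average and 292 between lines. Without genes that have an overlapping row of 0.1 times their counts, 161 genes gave 122, 117, 134, 23 and 99.

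With TMM on coding rows the median of the long genes was 0.35 in Flp-In and 0.48 in AsiSI, and that of genes of at least 100 CPM per Mb 0.20 and 0.38. Testing only rows with a mean CPM of at least 1 gave 0.18 and 0.36 for the latter. Leaving out 1 library gave medians of 0.16 to 0.24 in Flp-In and 0.21 to 0.39 in AsiSI, and for genes of at least 100 CPM per Mb 0.05 to 0.10 and 0.19 to 0.24. Without the 5 genes with most counts the summed level in AsiSI rose by 0.38 on the log2 scale in place of 0.50. Nested rows with mean counts of at least 50 gave a difference between the first and the last section of the host of 0.184 in place of 0.096. Many named genes were chosen for their calls in these same libraries, so the following count does not stand for all long genes. Over 88 named genes, 3789 of 3888 repeats under an alternative kept direction and call, 99 kept only the direction and 0 reversed. The cause of these changes was not tested.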
